A study of Danio rerio with 4 samples.

Results

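The lens crystallin genes were described in RNA sequencing of whole zebrafish embryos. Members were all genes of the deposited table whose name starts with crya, cryb or cryg, leaving out names that start with crybg, and 51 of the 26812 genes met this rule. They comprised 3 alpha genes, 7 beta A genes, 6 beta B genes, 21 gamma M2d genes (named crygm2d1 to crygm2d21), 9 other gamma M genes, 2 gamma N genes and 3 gamma S genes. All 51 carried the Gene Ontology term structural constituent of eye lens, which 72 genes of the table carried in all. The rule did not use this term, but the term need not be independent of the gene names. The beta/gamma crystallin domain of Pfam was listed as the domain of 48 members, all but the 3 alpha genes, and of 55 genes in all.

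The study asked how loss of KDM5A, a histone demethylase that removes methyl groups from lysine 4 of histone H3, alters gene expression in the embryo. RNA of embryos, pooled per group according to the methods for 24 hpf, was sequenced in 4 libraries, 1 each of the genotypes WT and Kdm5a-KO at 24 hours post fertilization (hpf) and at 48 hpf. The labels state that Kdm5a was knocked out with CRISPR/Cas9 and that WT and KO fish were crossed within their own genotype, whereas the study's methods describe embryos injected with a guide RNA and a Cas9 plasmid, and the sample titles write "mo" for the same group. Injected embryos can be mosaic, and no source used here gives the alleles, so the share of cells that lacked KDM5A is unknown. Columns of the table are named C1, K1, C2 and K2. The letter C was taken to mean WT and K to mean KDM5A-KO, with the digit 1 for 24 hpf and 2 for 48 hpf, which is an inference that no source spells out. Early somite genes bear on the numbers, because 10 of the 11 found were higher at 24 than at 48 hpf in both genotypes. KDM5A itself was at 13.8 FPKM (fragments per kilobase of gene length, corrected for library depth) in WT at 24 hpf and was not lower in KDM5A-KO, where it was at 20.3. At 48 hpf it was at 18.1 and 16.3. The name KDM5A-KO below is thus that of the label.

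Library totals, read back from the FPKM values, were between 7441797 reads (WT 24 hpf, the shallowest) and 15922314 reads. Genes of rRNA and their near neighbours held 12.5% of the reads in the WT 24 hpf library and under 1% in each of the others (0.341% to 0.555%). Ratios below are given as deposited, and log2 ratios are log2 of (FPKM + 1) over (FPKM + 1), which understates the change of low genes. Rescaling by median ratios used the 14596 genes at 1 FPKM or more in every library. It would lower every log2 FPKM ratio of the genotypes by 0.27 at 24 hpf and by 0.01 at 48 hpf. Ratios of the times would shift by -0.10 in WT and 0.15 in KDM5A-KO. With 1 library in each group, none of the differences has a replicate check. Intervals are 95% exact (Clopper-Pearson) intervals of the FPKM ratio, and they cover counting error only.

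Crystallins are the abundant soluble proteins that fill the fibre cells of the vertebrate lens and give it transparency and refractive power. Alpha crystallins are small heat shock proteins that hold other proteins in solution. Beta crystallins assemble into dimers and larger complexes, and gamma crystallins are monomers built from the same kind of domain. The gamma M genes, whose proteins are rich in methionine, are numerous in fish and belong to the dense core of the fish lens. In the zebrafish the lens separates from the surface ectoderm around the first day of development, and its primary fibre cells elongate and load with crystallin during the following day.

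Crystallin RNA was scarce at 24 hpf and abundant at 48 hpf, and at both times the library labelled KDM5A-KO held less of it. All members together took 0.0176% of the reads in WT (95% Wilson interval 0.0167% to 0.0186%) and 0.00895% in KDM5A-KO (0.00848% to 0.00945%) at 24 hpf. At 48 hpf they took 0.714% in WT (0.710% to 0.718%) and 0.273% in KDM5A-KO (0.271% to 0.276%). Summed FPKM over the 51 genes was 145 in WT and 75.0 in KDM5A-KO at 24 hpf, then 6584 and 2437 at 48 hpf. KDM5A-KO therefore held 0.518 times the WT sum at 24 hpf and 0.370 times at 48 hpf. RNA came from whole embryos, so fewer lens cells and less crystallin RNA per lens cell cannot be told apart in any of these values.

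**Figure D1:**
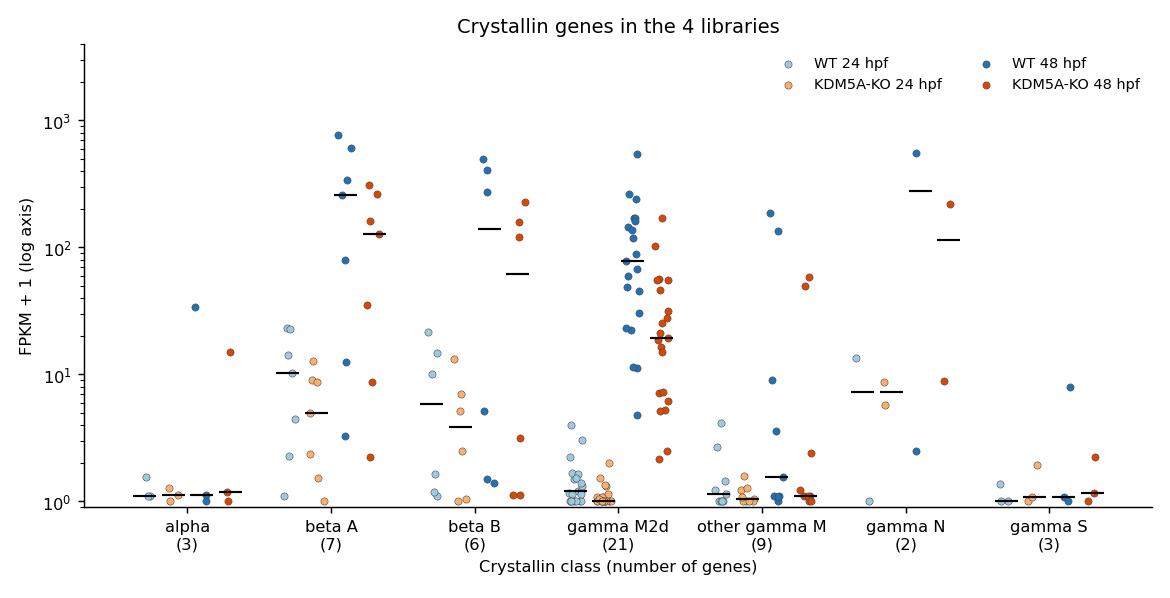
FPKM + 1 of each crystallin gene (points, log axis) in the 4 libraries, by class, with the median of the class as a black line. In the beta A, beta B and gamma M2d classes the 48 hpf medians lie above the 24 hpf medians and the KDM5A-KO medians below the WT medians, whereas most genes of the alpha, other gamma M and gamma S classes sit near 1 in every library.

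From 24 to 48 hpf, 40 of the 51 members were at least 2-fold higher in WT and 0 were lower by that measure. Over all genes, 12.4% were higher and 4.45% lower. In KDM5A-KO, 37 members were at least 2-fold higher at 48 hpf and 1, crybb3, was at least 2-fold lower, where 6.34% and 3.54% of all genes were. The median log2 ratio of the members was 4.54 in WT and 3.55 in KDM5A-KO, against 0.08 and -0.03 over all genes. The log2 rise was smaller in KDM5A-KO than in WT for 42 members and larger for 9, with a median difference of -0.69. No count over all genes is given beside it, and the medians over all genes differed in the same direction. The added 1 FPKM also weighs on members near 0 at 24 hpf. Without it, summed FPKM rose 45.4-fold in WT and 32.5-fold in KDM5A-KO over all members. The gamma M2d sum rose 237-fold in WT and 256-fold in KDM5A-KO, and the other gamma M sum 57.8-fold and 88.0-fold. At 24 hpf these sums rested on 78 and 39 reads for gamma M2d and on 42 and 15 for the other gamma M genes. By reads, the intervals of the genotypes overlapped, at 164 to 259 and 169 to 325 for gamma M2d. For the other gamma M genes they were 50.6 to 95.1 and 71.2 to 211. Sums of the remaining classes rose less in KDM5A-KO as deposited. By reads, the intervals of the genotypes overlapped for beta A, at 25.4 to 29.7 and 23.4 to 27.5. They overlapped for alpha too, at 20.2 to 84.7 and 15.1 to 55.4, but not for beta B, gamma N and gamma S. The beta A sum rose 28.8-fold in WT and 27.1-fold in KDM5A-KO. Rescaling by median ratios would shift the log2 rise by -0.10 in WT and 0.15 in KDM5A-KO, which together exceed the beta A difference. None of these differences between the genotypes was tested.

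Between the genotypes at 24 hpf, 6 members were at least 2-fold lower in KDM5A-KO and 1 was at least 2-fold higher, and over all genes 1.32% were lower and 2.72% higher by that measure. The 6 were cryba2b, cryba4, crybb1l1, crygm2d13, crygmx and crygmxl2, and the 1 was crygn1. After the rescaling by median ratios 11 members were lower and 1 higher, and over all genes 1.85% were lower and 1.61% higher. Few reads lay behind most members at this time, with under 10 in both libraries for 33 of the 51. Among the 18 with 10 or more in either library, the interval of the ratio lay wholly below 1 for 15 and wholly above 1 for 1, where of the 19460 such genes in all 9.41% lay below and 39.3% above. For early somite genes, which are high in younger embryos, the median was 0.51 at 24 hpf on the log2 scale, with 9 of 11 above 0. The median was 0.12 over all genes and 0.22 over genes at 1 FPKM or more in either library of that time. Whether the 24 hpf KDM5A-KO embryos were younger, and what part that had in the crystallin values, was not tested.

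At 48 hpf, 35 members were at least 2-fold lower in KDM5A-KO and 1, again crygn1, was at least 2-fold higher, where 3.49% of all genes were lower and 2.56% higher. The median log2 ratio of the members was -1.20, against -0.01 over all genes, while at 24 hpf it was -0.20 against 0.12. Of the 40 members with 10 or more reads in either 48 hpf library, 39 had an interval wholly below 1 and 1 had an interval wholly above 1, where of the 20602 such genes in all 32.6% lay below and 26% above. Beyond these, crybb3 had 10 or more reads at 24 hpf, and the other 10 members (cryaba, cryabb, crybb2, crygm2e, crygm2f, crygm3, crygm4, crygm7, crygs3 and crygs4) had under 10 in every library. The median of the early somite genes was 0.10 at this time. All of them but dlc were under 1 FPKM in WT then, such as her1 at 0 and tbx6 at 0.782. The added 1 FPKM weighs on such ratios, so this median says little about stage.

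**Figure D2:**
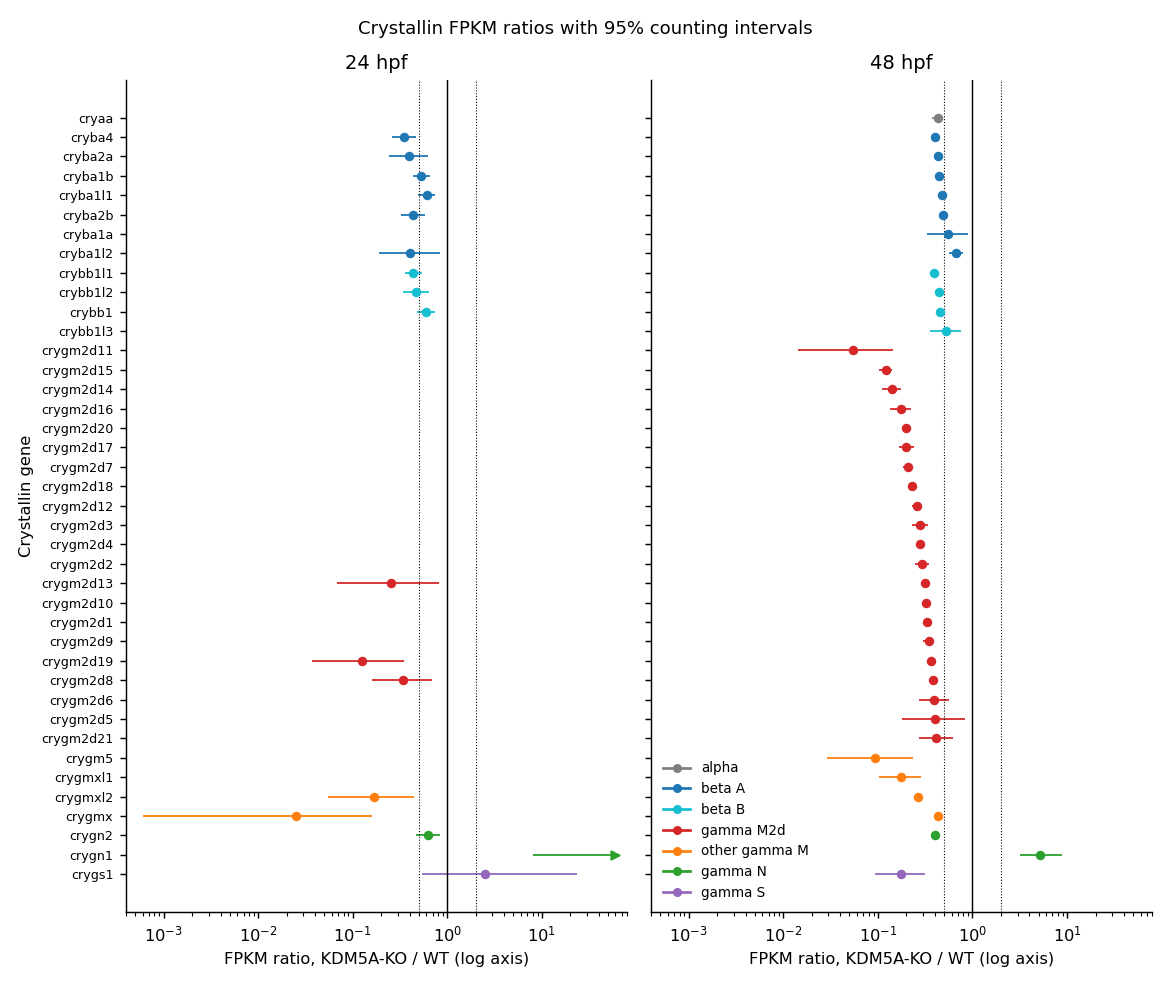
FPKM ratio of KDM5A-KO over WT (points, log axis) with its 95% counting interval (lines) at 24 and 48 hpf, for the 40 crystallin genes with 10 or more reads in either 48 hpf library, coloured by class. A gene is drawn at 24 hpf only where it had 10 or more reads in either library of that time, the arrow marks crygn1 with 0 reads in WT, and dotted lines mark 2-fold. At 48 hpf all points but crygn1 lie below 1, and the gamma M2d points reach lower than the beta points.

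The classes did not stand in the same proportion to WT. Beta A genes summed to 71.3 FPKM in WT and 33.3 in KDM5A-KO at 24 hpf, then to 2058 and 901 at 48 hpf, a ratio of 0.438 at the later time. Beta B genes summed to 44.14 and 23.9 at 24 hpf, then to 1180 and 506 at 48 hpf, a ratio of 0.429. Gamma M2d genes summed to 10.2 and 2.64 at 24 hpf, then to 2425 and 677 at 48 hpf, a ratio of 0.279. By reads, the 48 hpf interval of the class was 0.441 to 0.458 for beta A, 0.409 to 0.428 for beta B and 0.278 to 0.291 for gamma M2d. These intervals, of counting error only, lay apart from one another, with that of gamma M2d the lowest of them. The interval was 0.295 to 0.327 for the other gamma M genes and 0.109 to 0.346 for gamma S, from 78 reads in WT and 16 in KDM5A-KO. It was 0.397 to 0.430 for gamma N and 0.384 to 0.501 for alpha. The share of the crystallin FPKM taken by the gamma M2d genes was 7.05% in WT and 3.52% in KDM5A-KO at 24 hpf, then 36.8% and 27.8% at 48 hpf. Beta genes together took 79.6% and 76.2% at 24 hpf, and 49.2% and 57.7% at 48 hpf.

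**Figure D3:**
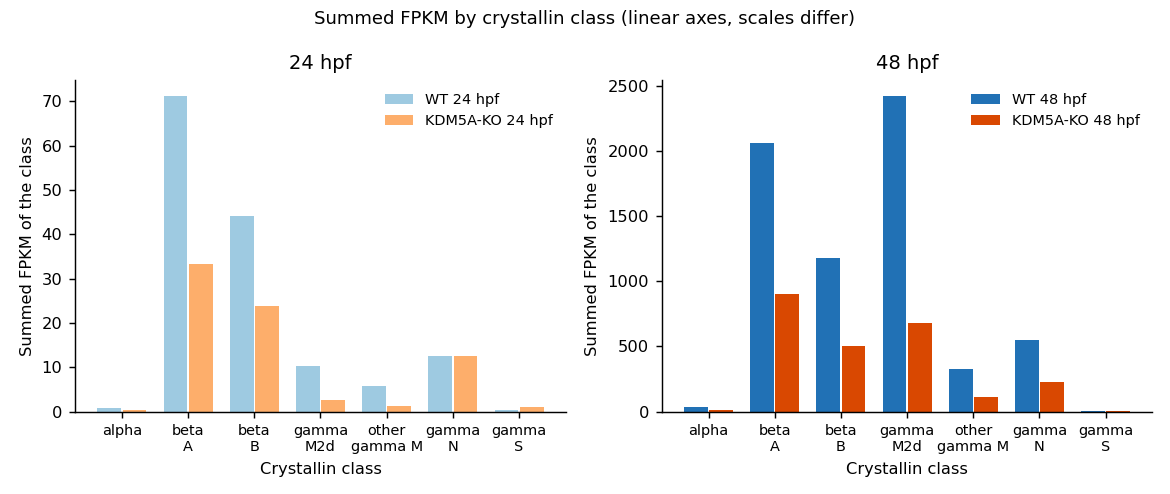
Summed FPKM of each crystallin class (bars, linear axes that start at 0 and differ in scale) in WT and KDM5A-KO at 24 hpf (left) and 48 hpf (right). Beta A genes led at 24 hpf in both libraries, gamma M2d genes led in WT at 48 hpf with 2425, and beta A genes led in KDM5A-KO at 48 hpf with 901.

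Among the alpha genes only cryaa was above 1 FPKM in any library. Its FPKM was 0.569 in WT against 0.288 in KDM5A-KO at 24 hpf, from 6 reads each, and 32.7 and 14.1 at 48 hpf. The 48 hpf ratio was 0.431 (0.377 to 0.493). In mammals the protein of this gene, alpha A crystallin, is largely confined to the lens, while alpha B crystallin is also made in muscle and brain. Both alpha B genes were near 0 here. For cryaba the FPKM was 0.101 in WT at 24 hpf, from 1 read, and 0 in the other 3 libraries. For cryabb it was 0.102 in WT and 0.128 in KDM5A-KO at 24 hpf, then 0.122 and 0.190 at 48 hpf, from 2 to 8 reads per library, and its 48 hpf interval of 0.450 to 6.06 included 1.

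Beta A genes held the highest crystallin level of each 48 hpf library. In WT, cryba4 had an FPKM of 21.8 at 24 hpf and 768 at 48 hpf, and in KDM5A-KO it had 7.66 and 309, ratios of 0.352 (0.261 to 0.472) and 0.402 (0.386 to 0.418). For cryba1b the FPKM was 22.2 in WT against 11.8 in KDM5A-KO at 24 hpf, then 601 and 263 at 48 hpf. For cryba1l1 it was 13.2 and 7.99 at 24 hpf, then 339 and 161 at 48 hpf. The KDM5A-KO library was thus the lower of the pair at both times for these 3 leading genes, with 48 hpf ratios of 0.438 (0.423 to 0.453) for cryba1b and 0.474 (0.457 to 0.491) for cryba1l1. The ratio of cryba1b was 0.529 (0.432 to 0.649) at 24 hpf, and that of cryba1l1 was 0.604 (0.490 to 0.745).

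The other beta A genes were lower in KDM5A-KO too, by differing amounts. For cryba2b, FPKM was 9.22 in WT against 3.97 in KDM5A-KO at 24 hpf, a ratio of 0.431 (0.323 to 0.574), and 257 and 126 at 48 hpf, a ratio of 0.489 (0.469 to 0.511). Its relative cryba2a, at 78.8 FPKM in WT at 48 hpf, had ratios of 0.391 and 0.431. The 2 beta A genes with the smallest difference at 48 hpf were also the lowest in level. For cryba1l2 the FPKM was 1.301 and 0.519 at 24 hpf, then 11.5 and 7.74 at 48 hpf, with a 48 hpf ratio of 0.674 (0.570 to 0.796). For cryba1a it was 0.0995 and 0 at 24 hpf, then 2.29 and 1.26 at 48 hpf, from 48 and 27 reads, with a ratio of 0.548 (0.329 to 0.897).

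Among the beta B genes, crybb1, whose protein in mammals is among the main beta crystallins of fibre cells, had an FPKM of 20.5 in WT and 12.2 in KDM5A-KO at 24 hpf, then of 496 and 226 at 48 hpf. Its ratios were 0.594 (0.472 to 0.749) and 0.455 (0.436 to 0.474). For crybb1l1 the FPKM was 13.7 and 6.02 at 24 hpf, then 407 and 158 at 48 hpf, with ratios of 0.438 (0.356 to 0.539) and 0.388 (0.376 to 0.401). That is the lowest 48 hpf ratio of the 11 beta genes with 10 or more reads in either 48 hpf library. For crybb1l2 it was 9.01 and 4.18 at 24 hpf, then 272 and 120 at 48 hpf, with ratios of 0.464 (0.338 to 0.638) and 0.440 (0.419 to 0.461). The remaining beta B genes were low. For crybb1l3 the FPKM was 0.104 and 0.0525 at 24 hpf, from 1 read each, and 4.18 and 2.19 at 48 hpf, a ratio of 0.522 (0.355 to 0.759). The gene crybb2 stayed at or under 0.393 FPKM in every library.

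The gene crybb3 departed from its class. Its FPKM was 0.654 in WT against 1.52 in KDM5A-KO at 24 hpf, from 5 and 23 reads, and 0.501 and 0.122 at 48 hpf, from 8 and 2 reads. It was thus the single beta gene whose point estimate was above 1 at 24 hpf, with a ratio of 2.32, but the interval of 0.864 to 7.83 included 1, as did that at 48 hpf (0.0252 to 1.22). It was also the member at least 2-fold lower at 48 than at 24 hpf in KDM5A-KO, with a log2 ratio of -1.17.

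Neighbouring beta genes formed 4 pairs of 1 beta A and 1 beta B gene on opposite strands. The spans overlapped for cryba1a and crybb1l3 on chromosome 15 (by 8.25 kb), cryba1l1 and crybb1l1 on chromosome 14 (by 3.57 kb), and cryba1l2 and crybb1l2 on chromosome 1 (by 3.12 kb). On chromosome 10, 14.8 kb separated cryba4 and crybb1. Within a pair the 48 hpf log2 ratios were -1.07 and -1.36 on chromosome 14, -0.51 and -1.18 on chromosome 1, -0.54 and -0.70 on chromosome 15, and -1.31 and -1.13 on chromosome 10, the beta A gene first. Levels within a pair differed most on chromosome 1, where crybb1l2 stood at 272 FPKM and cryba1l2 at 11.5 in WT at 48 hpf. The sources used here do not say whether the counting used strand, so reads in the overlaps cannot be told apart.

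The gamma M2d genes formed 1 cluster on chromosome 9, from 22280292 to 22528713 in the coordinates of the table, a stretch of 248 kb with all 21 genes on the minus strand. The table names no build, and the submitters' processing notes name mm10, a mouse build, so the zebrafish build is unknown. At 24 hpf these genes were barely detected. In WT 7 of the 21 were at 0 and the highest was at 2.999 FPKM, and in KDM5A-KO 12 were at 0 and the highest was at 1.01. At 48 hpf all 21 were detected in both libraries, with a median of 76.7 FPKM in WT (3.76 to 544) and 18.4 in KDM5A-KO (1.17 to 170). All 21 were at least 2-fold higher at 48 than at 24 hpf in each genotype.

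At 48 hpf all 21 gamma M2d genes were lower in KDM5A-KO, 20 of them at least 2-fold, and all 21 intervals lay below 1, as did those of 32.6% of the genes with 10 or more reads. The ratios ran from 0.0542 for crygm2d11 to 0.413 for crygm2d21, with a median of 0.281. The order of the genes by level was much alike in the libraries. Over the 21 genes, which share a locus and may share reads, the Spearman rho was 0.95 and the Pearson r on log2 FPKM was 0.93. The highest was crygm2d13, with an FPKM of 2.05 in WT and 0.519 in KDM5A-KO at 24 hpf, from 10 and 5 reads, and 544 and 170 at 48 hpf, a 48 hpf ratio of 0.312 (0.296 to 0.330). For crygm2d8 the FPKM was 2.999 and 1.01 at 24 hpf, then 264 and 101 at 48 hpf, a ratio of 0.384 (0.361 to 0.407). For crygm2d18 it was 0.642 and 0 at 24 hpf, then 240 and 54.7 at 48 hpf, a ratio of 0.228 (0.207 to 0.250).

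On the log2 scale of FPKM + 1, the lowest ratios of all members at 48 hpf belonged to 5 genes of this cluster. For crygm2d11, FPKM at 48 hpf was 21.6 in WT against 1.17 in KDM5A-KO, from 72 and 4 reads, a ratio of 0.0542 (0.0144 to 0.145). For crygm2d15 it was 145 and 17.6, a ratio of 0.122 (0.103 to 0.142). For crygm2d14 it was 44.0 and 6.14, a ratio of 0.140 (0.1097 to 0.176). At 24 hpf these 3 genes were at 0 in both libraries, except for 0.216 FPKM of crygm2d15 in WT, from 1 read. For crygm2d16 the 48 hpf FPKM was 29.6 and 5.16, a ratio of 0.174 (0.135 to 0.222), after 0.141 and 0 at 24 hpf. For crygm2d20 it was 135 and 26.9, a ratio of 0.199 (0.183 to 0.216), after 0.328 and 0.0829 at 24 hpf. By 48 hpf FPKM ratio, crygm5 (0.0938), crygmxl1 (0.176) and crygs1 (0.177), which are not gamma M2d genes, lay within the range of these 5. The member of the cluster under 2-fold on the log2 scale of FPKM + 1 was crygm2d5 (-0.93), a gene of low level at 0 in both 24 hpf libraries and at 3.76 and 1.49 FPKM at 48 hpf. Its FPKM ratio was 0.397 (0.178 to 0.827).

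**Figure D4:**
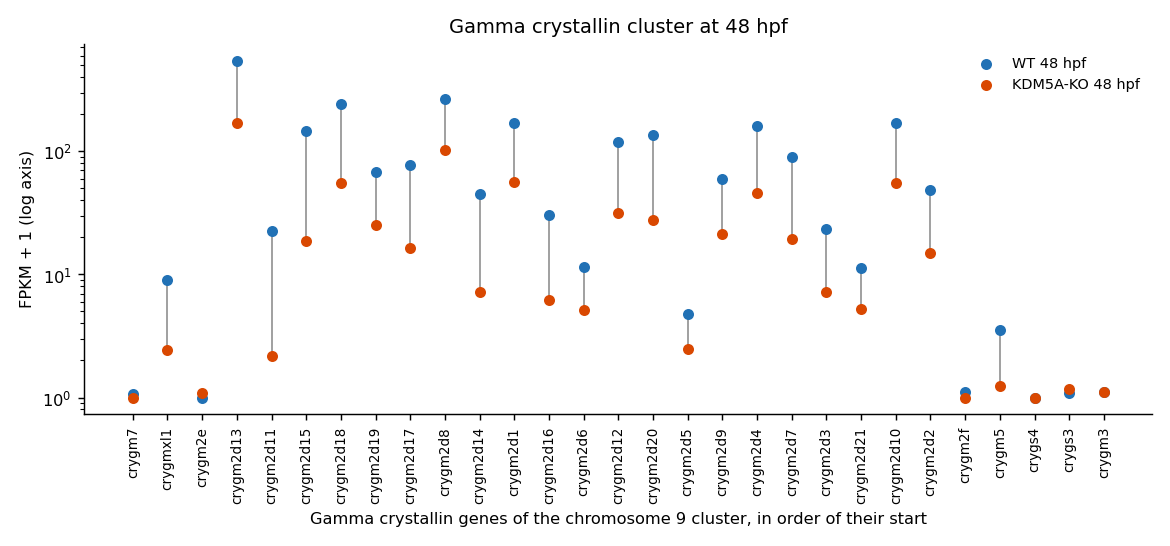
FPKM + 1 (log axis) of the gamma crystallin genes of the chromosome 9 cluster at 48 hpf in WT and KDM5A-KO, in the order of their starts, with a grey line joining the values of a gene. The KDM5A-KO point lies under the WT point for all 21 gamma M2d genes, whereas the flanking crygm7, crygm2e, crygm2f, crygs3, crygs4 and crygm3 sit near 1 in both.

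Single values of the cluster carry the limits of gene copies that may be much alike, although their identity was not analysed here. The span of 17 of the 21 genes overlapped another gene, 5 gene models were longer than 30 kb and contained others, and 6 genes shared their best protein match with another of the 6. Reads may thus be split or shared between copies in ways the table does not show. The 5 long models had 48 hpf ratios of 0.199 to 0.384 and the other 16 had ratios of 0.0542 to 0.413. With the 21 genes summed into 1 value, 16 of the 31 resulting values were at least 2-fold lower in KDM5A-KO at 48 hpf and 1 was at least 2-fold higher, with a median log2 ratio of -1.02.

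Of the 9 other gamma M genes, 4 had 10 or more reads in either 48 hpf library, and all 4 were at least 2-fold lower in KDM5A-KO at that time. For crygmx, on chromosome 12, the FPKM was 3.17 in WT against 0.0801 in KDM5A-KO at 24 hpf, from 20 reads and 1 read, and 133 and 57.4 at 48 hpf. Its log2 ratio of -1.95 was the lowest of the members at 24 hpf, with an FPKM ratio of 0.0253 (0.000610 to 0.158), and at 48 hpf the ratio was 0.432 (0.397 to 0.470). For crygmxl2, also on chromosome 12, it was 1.70 and 0.287 at 24 hpf, then 185 and 49.0 at 48 hpf, with ratios of 0.168 (0.0547 to 0.443) and 0.265 (0.247 to 0.283). For crygmxl1, beside the gamma M2d cluster, it was 0.151 and 0 at 24 hpf, then 8.06 and 1.42 at 48 hpf, a ratio of 0.176 (0.103 to 0.285). The fourth, crygm5, stood at 2.56 and 0.240 FPKM at 48 hpf, from 52 and 5 reads, a ratio of 0.0938 (0.0292 to 0.233). The other 5, crygm2e, crygm2f, crygm3, crygm4 and crygm7, had 5 or fewer reads in every library.

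The gamma N genes, whose sequence has features of both the beta and the gamma crystallins, differed between the genotypes in opposite directions. For crygn2, on chromosome 24, FPKM was 12.5 in WT against 7.75 in KDM5A-KO at 24 hpf, a ratio of 0.622 (0.467 to 0.829), and 550 and 221 at 48 hpf, a ratio of 0.402 (0.386 to 0.418). It was the third highest crystallin gene in WT at 48 hpf. For crygn1, on chromosome 2, FPKM was 0 in WT against 4.78 in KDM5A-KO at 24 hpf, from 0 and 60 reads, and 1.51 and 7.80 at 48 hpf, from 20 and 106 reads. On the log2 scale of FPKM + 1 it was the single member at least 2-fold higher in KDM5A-KO, and it was so at both times. Among members with 10 or more reads at 24 hpf, crybb3 (2.32) and crygs1 (2.53) also had FPKM ratios above 2, with intervals that included 1. With a floor of 3 reads put in place of the 0 in the WT library, crygn1 was 10.1-fold higher at 24 hpf. The lower limit of its exact interval was 7.97. At 48 hpf its ratio was 5.17 (3.18 to 8.80). It also differed in its course, since in KDM5A-KO its 48 hpf level was 1.63 times its 24 hpf level (1.18 to 2.28), where that of crygn2 was 28.5 times (23.6 to 34.7). No other gene overlapped the span of crygn1.

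Gamma S crystallin is a gamma crystallin of the lens cortex in mammals. For crygs1 the FPKM was 0.376 in WT against 0.9498 in KDM5A-KO at 24 hpf, from 2 and 10 reads, and 6.94 and 1.23 at 48 hpf, from 77 and 14 reads. The 24 hpf ratio was 2.53 with an interval of 0.539 to 23.7 that included 1, and the 48 hpf ratio was 0.177 (0.0926 to 0.316). In WT its 48 hpf level was 18.5 times its 24 hpf level (4.94 to 155), and in KDM5A-KO the ratio of 1.29 had an interval of 0.535 to 3.26. For crygs3 the FPKM was 0 in both 24 hpf libraries and 0.0880 and 0.172 at 48 hpf, from 1 and 2 reads. For crygs4 it was 0.0859 in KDM5A-KO at 24 hpf, from 1 read, and 0 elsewhere.

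Over the members with 1 FPKM or more in all 4 libraries, the genotype ratios of the times could be set side by side. These 10 genes were below 0 on the log2 scale at both times. The filter leaves out crygn1, at 0 FPKM in WT at 24 hpf and higher in KDM5A-KO at both times. It also leaves out crybb3, and no count over all genes by the same filter is given. Across them the log2 ratios at 24 and 48 hpf had a Pearson r of 0.33 and a Spearman rho of 0.37, as a description over genes that share their libraries.

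Genes of the lens that encode no crystallin were listed to set beside the members, and 23 of the 30 were found. At 48 hpf 21 of the 23 were below 0 on the log2 scale, 6 at least 2-fold lower and 0 at least 2-fold higher in KDM5A-KO, with a median log2 ratio of -0.51. Over all genes 3.49% were lower and 2.56% higher by that measure, and the median was -0.01. No count of all genes below 0 is given beside the 21. At 24 hpf 0 of the 23 were past 2-fold either way on the log2 scale of FPKM + 1, where 1.32% of all genes were lower and 2.72% higher. Their median of 0.01 lay between 14 genes above 0 and 8 below. On the lower side mipa had a 24 hpf ratio of 0.464 (0.356 to 0.605), and on the higher side six3b, a homeobox factor of eye and forebrain, had a ratio of 2.05 (1.73 to 2.45). All 5 of a short list of fibre cell markers (bfsp2, lim2.4, mipa and the members cryaa and crybb1) were below 0 at both times. At 24 hpf bfsp2 had 8 reads in WT and 2 in KDM5A-KO, and cryaa had 6 in each, with an interval of 0.135 to 1.89. Other mip and lim2 genes of the lens list went both ways at 24 hpf. Above 0 were mipb (0.04) and lim2.2 (0.002, from 1 and 2 reads), lim2.5 was at 0, and lim2.1 (-0.45) and lim2.3 (-0.86) were below 0. The medians of the 5 markers, -0.71 in the younger pair of libraries and -1.13 in the older pair, were the values of the member crybb1. The markers that are not members were at -0.59 (bfsp2), -0.81 (lim2.4) and -0.88 (mipa) at 24 hpf. At 48 hpf they were at -1.57, -0.99 and -0.65, in the same order. Fibre cell genes were among the 6 lower at 48 hpf. For bfsp2, which encodes a beaded filament protein of fibre cells, FPKM at 48 hpf was 50.4 in WT against 16.3 in KDM5A-KO, a ratio of 0.324 (0.290 to 0.3603). For mipb, an aquaporin of fibre membranes, it was 45.6 and 21.5, a ratio of 0.472 (0.432 to 0.516). The others were lim2.5, a fibre membrane protein, lgsn, which encodes lengsin, the heat shock factor hsf4, and prox1a, a homeobox factor of fibre differentiation that is also expressed outside the lens, with 32.0 and 8.32 FPKM. Among transcription factors of the early lens the 24 hpf ratio was 1.6004 (1.24 to 2.09) for six3a and 1.33 (1.06 to 1.66) for pitx3. It was 1.74 (1.05 to 3.03) for foxe3, 1.76 (1.47 to 2.13) for sox1b and 1.17 for sox1a, whose interval included 1. The fibre factor prox1a was at 0.732 (0.597 to 0.899). Of all genes with 10 or more reads 39.3% lay wholly above 1 then, and rescaling would lower log2 ratios by 0.27. At 48 hpf the ratio was 0.596 (0.529 to 0.671) for six3a and 0.634 (0.558 to 0.719) for sox1a. It was 0.777 (0.660 to 0.913) for pitx3, 0.850 (0.521 to 1.38) for foxe3 and 0.890 (0.789 to 1.005) for sox1b. Of the fibre membrane genes, mipa was at 0.628 (0.585 to 0.675) and lim2.1 at 0.624 (0.539 to 0.721).

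Photoreceptor and retina genes also differed at 48 hpf. Of 26 rows of the table for 25 of the 26 listed genes, 11 were at least 2-fold lower and 2 at least 2-fold higher in KDM5A-KO at 48 hpf, with a median log2 ratio of -0.70. Over all genes 3.49% were lower and 2.56% higher. At 24 hpf 1 row was lower and 0 higher, with a median of 0.10, where 1.32% and 2.72% of all genes were. For crx, a photoreceptor transcription factor, FPKM at 48 hpf was 42.3 in WT against 2.64 in KDM5A-KO. For rho, the rod opsin, it was 16.9 and 0.404. For rx1, a transcription factor of retinal progenitors that was higher in KDM5A-KO, it was 5.50 and 16.9. The summed FPKM of the list was 99.4 in WT and 94.7 in KDM5A-KO at 24 hpf, then 589 and 288 at 48 hpf. It includes the pigment genes dct, tyr and pmelb, at 128, 34.6 and 41.1 FPKM in WT at 48 hpf. In KDM5A-KO they were at 108, 27.5 and 19.1. Whole embryos do not show where these were expressed, so the sum need not stand for the eye alone. The part of other eye tissues in the crystallin result was not tested. Of 14 markers of other embryonic tissues, 12 were found and all were detected in every library. Between the genotypes 0 of the 12 were past 2-fold at 48 hpf, where 3.49% of all genes were lower and 2.56% higher. With so few genes, this count does not show that these tissues were unchanged. On the log2 scale 6 were above 0 and 6 below at 48 hpf. The FPKM ratios at 48 hpf included 0.542 for krt5, 0.666 for elavl3, 0.674 for gfap, 1.67 for ttn.1 and 1.91 for myl7. Past 2-fold at 24 hpf were the heart gene myl7, higher in KDM5A-KO, and the muscle gene ttn.1, lower.

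**Figure D5:**
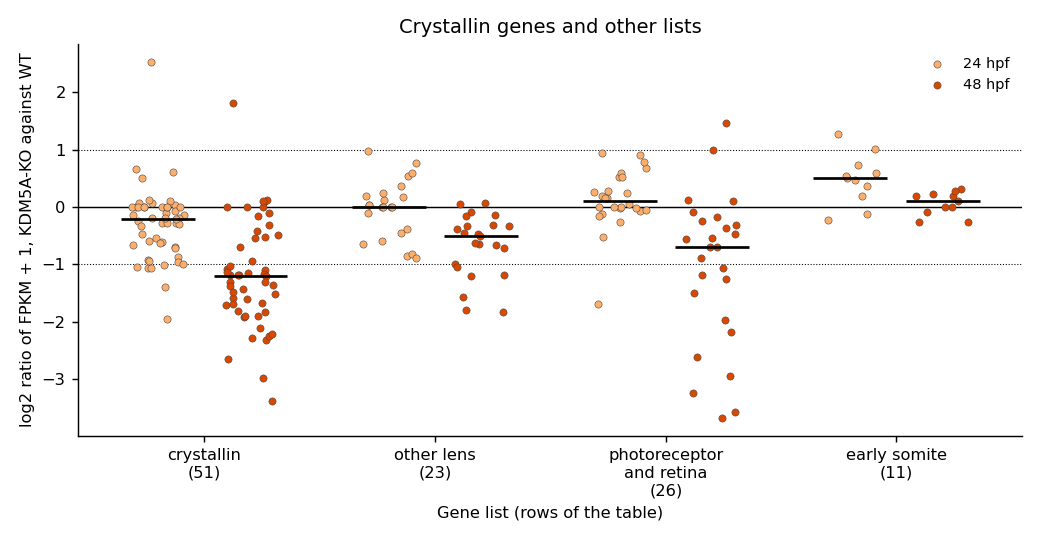
Log2 ratio of FPKM + 1 of KDM5A-KO against WT at 24 hpf (light) and 48 hpf (dark) for the crystallin genes, the other lens genes, photoreceptor and retina genes, and early somite genes, with the median as a black line and dotted lines at 2-fold. The 48 hpf medians were -1.20, -0.51, -0.70 and 0.10 in that order. Early somite genes other than dlc were under 1 FPKM in WT at 48 hpf, so the added 1 FPKM weighs on their ratios.

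Of the 21 further genes that carry the lens structure term, some of which are in the list of lens genes, 16 were below 0 and 4 above 0 on the log2 scale at 48 hpf, 7 at least 2-fold lower and 0 at least 2-fold higher in KDM5A-KO. Over all genes 3.49% were lower and 2.56% higher by that measure. The 4 above 0 were cpox (0.80), hspb2 (0.76), CABZ01079764.1 (0.47) and hspb6 (0.39). At 24 hpf 9 of the 21 were above 0 and 9 below, with 0 past 2-fold, where 1.32% of all genes were lower and 2.72% higher. The gene ENSDARG00000093318, whose best protein match is a zebrafish gamma-crystallin A, was at 12.9 FPKM in WT and 0.369 in KDM5A-KO at 48 hpf, from 34 reads and 1 read. The gene crybgx was at 3.16 and 0.0856, from 36 reads and 1 read. The gene CU929052.1, matched to filensin, the partner of the bfsp2 product in the beaded filament, was at 29.2 and 10.5. These 3 of the 7 were chosen after their values were seen.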

How the data were processed

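Per the sources used here, the authors checked reads with FastQC 0.11.5, aligned them with HISAT2 2.1.0, quantified genes with StringTie 1.3.3b and compared groups with DESeq 1.28.0, as named in the submitters' processing notes. They deposited 1 table of FPKM values, 1 column per library. The library kit is given as SMARTER in the labels and as NEBNext Ultra in the study's methods.

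Members and lists were chosen with earlier results of these data known. FPKM values were whole reads (fragments) divided by 1 length per gene and 1 total per library, with a tolerance of 0.001 reads, and the smallest length that gave whole reads was used for all 26812 genes. Recovered reads summed to 98.2% to 98.5% of the totals, and for some genes a multiple would also give the values, so that intervals are then too wide. The recovery and calls were tested on simulated data. The tools were pandas 2.3.3, numpy 2.4.6, matplotlib 3.10.9 and scipy 1.17.1 under Python 3.11.15. Members at least 2-fold higher or lower (pseudocount of 1 FPKM) were counted beside all genes, without a test, because each group had 1 library.

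Named members were the 3 highest of each class, and the 5 lowest and 5 highest log2 ratios at each time among members at 1 FPKM or more in either library, 31 in all. Others, and genes of the lists, were named after their values were seen. Of the members' IDs, 48 were in the reference name table, and those of crygm2d17, crygm2d18 and crygm2d19 were not. That reference gives the name crygm2d17 to the ID of crygm2d8, and crygm2d18 to the ID of crygm2d9. Names in the text are those of the deposited table. Alternatives were median-of-ratios rescaling, totals without rRNA genes, a pseudocount of 0.1 FPKM, a minimum of 1 FPKM, a 3-fold threshold, gamma M2d genes summed, the leading gene left out, protein-coding genes only and, added after the data were seen, members overlapping no other gene. Promoter motifs and protein identities were not analysed here. The values of 1 gene of the lists are not reported here.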

Additional observations from a re-analysis of the deposited data

Results flagged for a closer look

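The log2 ratio of KDM5A-KO against WT had opposite signs at the 2 times for 7 members, crybb3, crygs1, crygm2d2, crygm2d3, crygm3, crygm4 and crygm5, which were above 0 at 24 hpf and below 0 at 48 hpf. For crybb3 the log2 ratio was 0.61 at 24 hpf and -0.42 at 48 hpf, a difference (48 minus 24 hpf) of -1.03, from 5 and 23 reads at 24 hpf and 8 and 2 reads at 48 hpf. For crygs1 it was 0.50 and -1.83, a difference of -2.33, from 2 and 10 reads at 24 hpf and 77 and 14 reads at 48 hpf. The difference was -1.82 for crygm2d2, -1.76 for crygm2d3 and -1.59 for crygm5, each from 0 reads and 1 read at 24 hpf. It was -1.16 for crygm4, which had 5 or fewer reads in every library and also had opposite signs over time in the genotypes, and -0.0063 for crygm3. With 1 library in each group these differences were not tested, and the 24 hpf intervals of the FPKM ratio of all 7 included 1.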

How the results depend on the processing

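The number of members past 2-fold in KDM5A-KO against WT at 24 hpf was 7 as deposited. It was 12 after median-of-ratios rescaling and 12 with totals without rRNA genes. It was 27 with a pseudocount of 0.1 FPKM (4 higher and 23 lower) and 2 at 3-fold. At 48 hpf it was 36 as deposited, 18 at 3-fold, 17 with the gamma M2d genes summed and 15 of 21 without members that overlap another gene. From 24 to 48 hpf the 40 in WT and 38 in KDM5A-KO became 20 and 18 with the gamma M2d genes summed, and 15 and 14 without overlapping members. In these last 2 settings fewer genes were counted.

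The median log2 ratio of the members with a pseudocount of 0.1 FPKM was -0.81 at 24 hpf, -1.33 at 48 hpf, 5.02 over time in WT and 4.80 over time in KDM5A-KO. Over members at 1 FPKM or more in either library of a comparison it was -0.94, -1.46, 4.78 and 4.195, in the same order. This filter kept 17 members at 24 hpf and 40 in each other comparison. Members can pass it through the 1 library where they are high, so these larger medians are no added support. With the gamma M2d genes summed it was -1.02 at 48 hpf, 2.44 over time in WT and 1.27 over time in KDM5A-KO.

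The ratio of summed crystallin FPKM at 24 hpf, 0.518 as deposited, was 0.429 after rescaling and 0.455 without rRNA genes in the totals. Over time the ratio of 45.4 in WT was 42.2 after rescaling and 39.9 without rRNA genes, and that of 32.5 in KDM5A-KO was 36.1 after rescaling. Without cryba4 the 48 hpf ratio was 0.366 in place of 0.370. Of 124 log2 ratios of named members, 0 changed sign under rescaling, totals without rRNA genes or the smaller pseudocount, 0 fell under 2-fold, and 3, 3 and 15 came to pass it. No paired analysis was possible because the groups held 1 library each, and for the same reason no library could be left out. At 24 hpf the crystallin values rested on few reads, 1309 in WT and 1318 in KDM5A-KO, against 110888 and 43481 at 48 hpf.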
